A study of Homo sapiens with 15 samples.

Results

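The replication-dependent histone genes supply the core histones H2A, H2B, H3 and H4 and the linker histone H1 that package newly made DNA. They were examined here in UKE1 cells, an established human blood cell line derived from a patient with a myeloproliferative neoplasm that had turned into leukaemia. Members were the protein-coding genes of the count table whose symbol begins with HIST1H, HIST2H, HIST3H or HIST4H and whose mean raw count over the 15 libraries was 10 or more. Of 71 such annotated genes, 17 met this rule: 1 of 6 H1 genes, 4 of 17 H2A genes, 8 of 18 H2B genes, 1 of 15 H3 genes and 3 of 15 H4 genes. The whole table held 58735 genes.

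RNA-seq libraries had been made in triplicate for 5 conditions, 15 in all. One was left untreated, one received TNF-α alone, and the other three received TNF-α and then MCL, ruxolitinib or both drugs. The labels give wild type for all groups, which is not read here as a statement about mutations that the leukaemia line itself carries. RNA was taken 3 h after treatment. MCL is read here as micheliolide, a sesquiterpene lactone named in the series title, and ruxolitinib inhibits the kinases JAK1 and JAK2. TNF-α is an inflammatory cytokine, used to imitate the inflamed surroundings of such cells in the body. Every drug-treated group also received TNF-α, and drugs without TNF-α were not analysed here. The sources used here do not give the doses, how long TNF-α acted before the drugs, or whether replicate libraries stem from separate cultures. The p-values measure only the spread among replicates, possibly a technical one.

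Replication-dependent histone genes are switched on as cells enter S phase, under the coactivator NPAT, and lie mostly in clusters on chromosomes 6 and 1. Many H2A and H2B genes sit head to head and share 1 promoter region. Their mRNAs usually end not in a poly(A) tail but in a short stem-loop, bound by the protein SLBP, which directs processing and later decay. Some of these genes also give longer, polyadenylated transcripts that read past the stem-loop, chiefly in cells that are leaving the cell cycle.

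The stem-loops are shown first because they are the feature that sets this gene family apart. They were searched in the GENCODE 29 transcripts, within 300 bases after the stop codon, as a 6-base stem beginning with GG, a 4-base loop beginning with T, and the stem's exact complement. The capitals mark the stem and the lower case letters the loop, written as DNA, and the names count the genes and members that hold each one.
17 histone genes, 6 of them members (HIST1H2AC, HIST1H2BG, HIST1H2BN, HIST1H3H, HIST2H2BE and HIST3H2A): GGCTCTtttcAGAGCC
5 histone genes, 3 of them members (HIST1H2BC, HIST1H2BD and HIST1H2BF): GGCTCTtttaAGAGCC
5 histone genes, 2 of them members (HIST1H4H and HIST4H4): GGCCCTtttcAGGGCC
3 histone genes, 1 of them a member (HIST1H4I): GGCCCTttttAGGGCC
The H4 members thus had stems of other letters than the H2A, H2B and H3 members. A stem-loop of this form was found in 12 of the 14 members whose transcripts go on past the stop codon. It was also found in 19 of 22 other histone genes with such sequence, and in 63 of 19400 other protein-coding genes (0.325%). HIST1H2AG and HIST1H2BJ had no match in this window. The models of HIST1H1C, HIST1H2BK and HIST2H2AC end at the stop codon, so nothing could be searched there. In 11 of the 17 members the annotated transcript ran over 100 bases past the stem-loop, against 11 of the 54 other histone genes. Of those 54, 32 had no annotated sequence past the stop codon and could not show this. Among genes with a stem-loop it was 11 of 12 members and 11 of 19 others. Raw counts depend on the length of the gene model, so the count rule itself bears on this contrast.

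Head-to-head H2A and H2B pairs in which both genes were members are shown next, because the results below compare the genes within each pair. The sequence between the annotated starts is given from the plus strand of GRCh38.p14, as RefSeq has it. The H2B gene is read leftwards from the left end and the H2A gene rightwards from the right end. Capitals mark the CCAAT box (CCAAT or ATTGG), the TATA box (TATAAA or TTTATA) and the octamer of H2B promoters (ATTTGCAT or ATGCAAAT).
HIST1H2BC and HIST1H2AC, chr6:26123927-26124144, 218 bases: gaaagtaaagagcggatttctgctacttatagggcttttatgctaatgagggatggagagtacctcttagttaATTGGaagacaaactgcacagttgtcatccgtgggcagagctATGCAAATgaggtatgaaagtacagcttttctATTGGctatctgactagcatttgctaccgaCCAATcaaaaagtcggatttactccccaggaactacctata
HIST1H2BJ and HIST1H2AG, chr6:27132796-27133041, 246 bases: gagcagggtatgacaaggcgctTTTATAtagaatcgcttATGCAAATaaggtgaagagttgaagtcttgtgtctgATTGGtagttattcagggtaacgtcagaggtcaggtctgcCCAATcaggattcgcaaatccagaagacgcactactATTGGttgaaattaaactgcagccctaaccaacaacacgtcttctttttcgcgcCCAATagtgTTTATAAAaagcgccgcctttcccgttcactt
HIST2H2BE and HIST2H2AC, chr1:149886683-149886917, 235 bases: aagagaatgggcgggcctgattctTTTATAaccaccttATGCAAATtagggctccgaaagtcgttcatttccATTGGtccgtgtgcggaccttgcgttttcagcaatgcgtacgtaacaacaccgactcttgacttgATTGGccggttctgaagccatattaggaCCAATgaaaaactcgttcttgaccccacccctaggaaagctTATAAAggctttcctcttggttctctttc
Each of the 3 stretches held 1 octamer and at least 3 CCAAT boxes. In the HIST1H2AG stretch the letters TTTATAAA are a TATA box read on both strands. The HIST1H2AC stretch held no TATAAA, although the longer RefSeq windows of both its genes, described below, do.

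All 17 members matched the RefSeq promoter table, which covers 250 bases before each gene's start and 50 after. CCAAT was present on either strand in 15 of 17 members, against 39.6% of 27239 other genes. TATAAA was present in 11 of 17 members, against 13.9% of the others. The octamer was present in 9 of 17 members, 6 of 8 H2B and 3 of 4 H2A genes, against 2.1% of the others. The windows of head-to-head partners cover partly the same bases, so these members are not independent of each other. A match describes letters and is not evidence of a bound factor.

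Most annotated histone genes had few counts. Of the 54 genes under the mean count, 13 had no count in any library. This allows up to 0.012 CPM over the 15 libraries together (3 counts, counting error only). That bound does not cover reads set aside because they match several genes. Of the 50-base stretches of HIST1H3D, HIST2H3C and HIST2H3PS2 100% also occur in other genes, as do 98% of HIST1H2AD and 86.3% of HIST1H2AM. HIST1H2AK shares 393 exon bases with HIST1H2BN. For these genes a count of 0 need not mean absent RNA. CPM is the usual RNA-seq unit that sets each count against its library total, here adjusted with the TMM method. In all, 29 had a mean under 1 and 25 had a mean of 1 to under 10. The members just inside the rule were HIST1H2BF and HIST1H2BG, with mean counts of 10 and 10.9. Both met it only through the libraries with both drugs, without which their means would be under 10. Just outside were HIST2H2BF and HIST1H2AI, with 9.6 and 9.33. The 54 genes together summed to 4.82 to 8.52 CPM in a library. The 17 members held 1144 to 2121 counts of library totals between 15476399 and 18035604, and 1 count was worth 0.0546 to 0.0657 CPM.

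**Figure D1:**
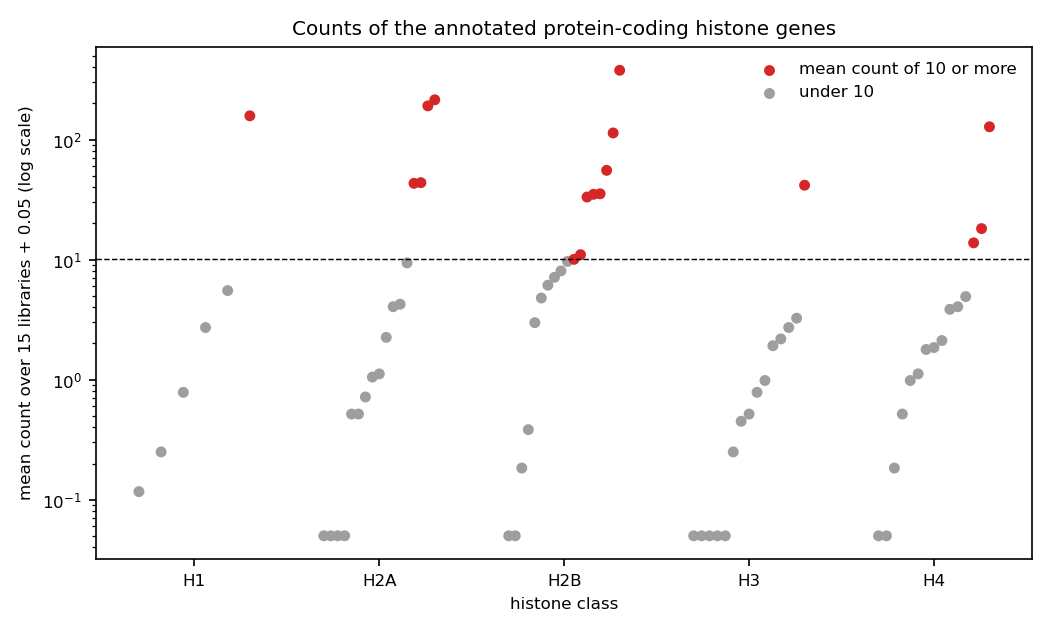
Mean raw count over the 15 libraries (log scale, 0.05 added so that 0 can be drawn) of the 71 annotated protein-coding histone genes, by class; red points have a mean count of 10 or more. The 17 red points include 8 H2B genes and a single H1 and H3 gene, and 13 genes lie on the bottom line at 0.

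The cells are labelled as haematopoietic, and 12 of 12 haematopoietic markers had a mean over 1 CPM. The summed level of these markers was 3772 to 3799 CPM with TNF-α alone and 2288 to 2359 CPM with both drugs, where 10 of the 12 fell. Lists of other cell types were not all silent. The 4 endothelial markers summed to 390.1 to 398.0 CPM with TNF-α and 347.4 to 357.9 with both drugs, where 3 fell. The 5 epithelial markers summed to 124.6 to 135.4 and 100.7 to 107.6 CPM: KRT18 and KRT8 fell, and EPCAM, CDH1 and KRT19 had no count in any library. The 4 B-cell markers summed to 28.6 to 33.0 and 25.5 to 29.6 CPM, mostly CD79A and PAX5, with CD79A lower and MS4A1 at 0. The 4 T-cell markers summed to 20.6 to 23.4 and 12.5 to 13.8 CPM, where 2 fell, and the 5 fibroblast markers to at most 0.406 CPM in any library, with LUM at 0. The part of these shifts in the histone results was not tested. The sources used here do not say whether poly(A) RNA was selected. Of 9 RNA genes known to lack a poly(A) tail, 6 had no count in any library, TERC had 11 counts in all and RNU4ATAC 1. RN7SL2, the signal recognition particle RNA, ranged from 81.1 to 543.8 CPM and varied widely within every group. How far RNA selection sets the histone levels was not tested. A change in the share of cells in S phase and a change in histone RNA per cell cannot be told apart in such bulk libraries.

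Levels between genes were compared per kilobase of the gene length given in the table. HIST1H2BK had by far the most RNA, with a mean of 59.2 CPM per kb. It was followed by HIST1H1C (14.7), HIST3H2A (12.7), HIST1H2AC (7.59), HIST2H2AC (6.72) and HIST1H4I (5.91 CPM per kb). The lowest was HIST4H4, with 0.319 CPM per kb. The gene lengths of HIST1H2BK, HIST1H1C and HIST2H2AC hold the coding part only, while those of most other members run far past the stem-loop, so this order depends on the gene models. Unscaled for length, 6 genes (HIST1H2BK, HIST1H2AC, HIST3H2A, HIST1H1C, HIST1H4I and HIST2H2BE) made up 79.2% ± 0.78 of the members' summed CPM in untreated cells and 76.4% ± 1.12 with both drugs (SD, n = 3).

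The members' summed level was highest with both drugs. It was 77.3, 76.9 and 80.2 CPM in untreated libraries and 75.2, 79.7 and 79.5 CPM with TNF-α alone. With MCL it was 87.3, 91.5 and 85.8 CPM, and with ruxolitinib 87.8, 96.4 and 94.0 CPM. With both drugs it was 116.9, 113.6 and 118.1 CPM, above every other library and 1.49 times the TNF-α mean. Of the rise of 38.1 CPM over TNF-α, HIST1H2AC alone made up 36%, HIST1H2BK 13.2% and HIST3H2A 9.83%.

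By class, H2A and H2B carried most of this. The 4 H2A genes summed to 23.6 ± 2.44 CPM with TNF-α and 41.8 ± 1.95 CPM with both drugs. The 8 H2B genes went from 35.2 ± 3.69 to 51.4 ± 2.66 CPM. The 3 H4 genes summed to 9.25 ± 1.39 and 10.4 ± 1.20 CPM, and the H3 gene HIST1H3H had 2.03 ± 0.373 and 2.79 ± 0.198 CPM (SD, n = 3 each). No test was made of these sums or of the difference between classes.

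**Figure D2:**
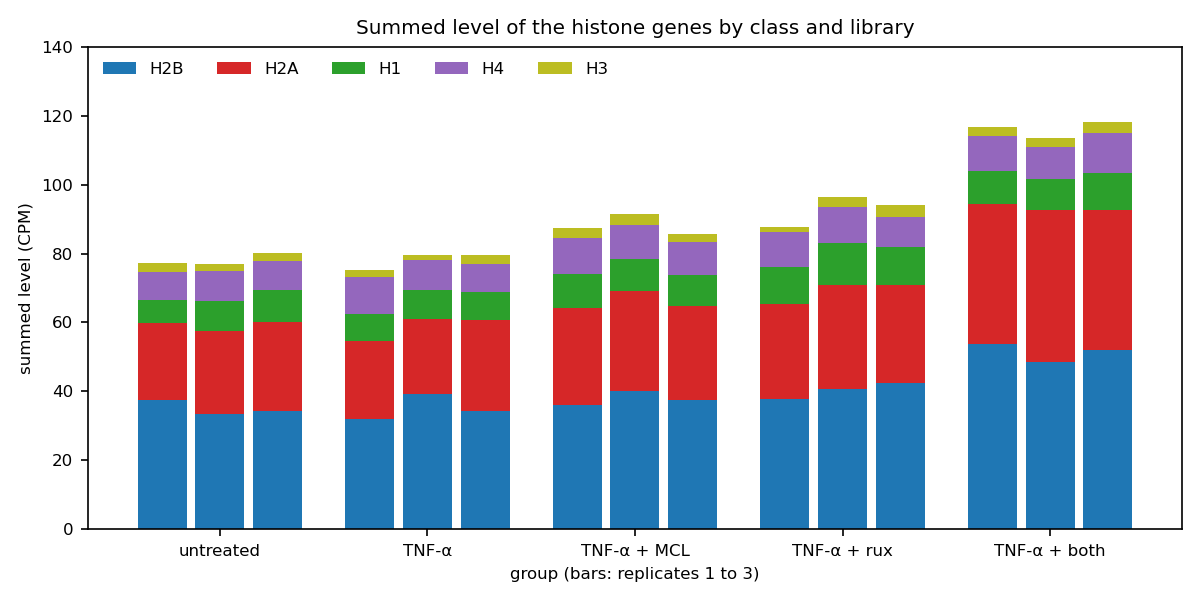
Summed level of the 17 histone genes in each of the 15 libraries (CPM, bars from 0), stacked by histone class. The 3 libraries with both drugs reach 113.6 to 118.1 CPM, and the others stay between 75.2 and 96.4 CPM.

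TNF-α alone left no histone gene past the test. Of the 17 members 0 rose and 0 fell in edgeR's quasi-likelihood test, at an adjusted p under 0.05, while 14.1% of the 16146 tested genes rose and 12.5% fell. None had an unadjusted p under 0.05, and DESeq2 also called 0. The members' median log2 fold change was -0.04, against 0.00 over all tested genes. The 95% interval (on 10 residual degrees of freedom) was -0.18 to 0.34 for HIST1H2AC and -0.22 to 0.17 for HIST1H2BK. For HIST1H2BC, the member of smallest p, the log2 fold change was 0.56 ± 0.29 (SE, adjusted p = 0.168), with the 3 TNF-α libraries above the 3 untreated ones. Of the genes that process or drive histone mRNA, 3 of 26 rose and 3 fell, close to those background shares. SLBP, which binds the stem-loop, fell by 0.13 on the log2 scale (SE 0.04, adjusted p = 0.00394), while CDK2, the S-phase kinase that acts on NPAT, rose by 0.32 ± 0.05 (adjusted p = 1.46e-07). The cap-binding partner SRRT rose by 0.16 ± 0.03 (adjusted p = 0.000119).

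The 3 drug groups were each compared with the same TNF-α libraries, so these comparisons share their controls. Both drugs together gave the most calls. In edgeR's test 10 of the 17 members rose and 1 fell, where 25.5% of all tested genes rose and 29.3% fell. Among the 7499 tested genes whose mean count lay within the members' range, 20.8% rose and 24.4% fell. The median log2 fold change was 0.55 over the members and -0.03 over all tested genes, and 16 of the 17 members had a positive value. By class the genes that rose were 1 of 1 H1, 3 of 4 H2A and 6 of 8 H2B genes, and 0 of the 4 H3 and H4 genes. HIST1H2BF, among those that rose, met the count rule only through the libraries with both drugs. Its rise here, and over each single drug below, was thus favoured by the rule. HIST1H2BG, positive here without a call, met the rule in the same way, so the median and the number of positive values share this limit. With no TMM scaling the split of all calls shifts: 46.5% of them were higher with TMM and 56.6% with library totals alone.

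**Figure D3:**
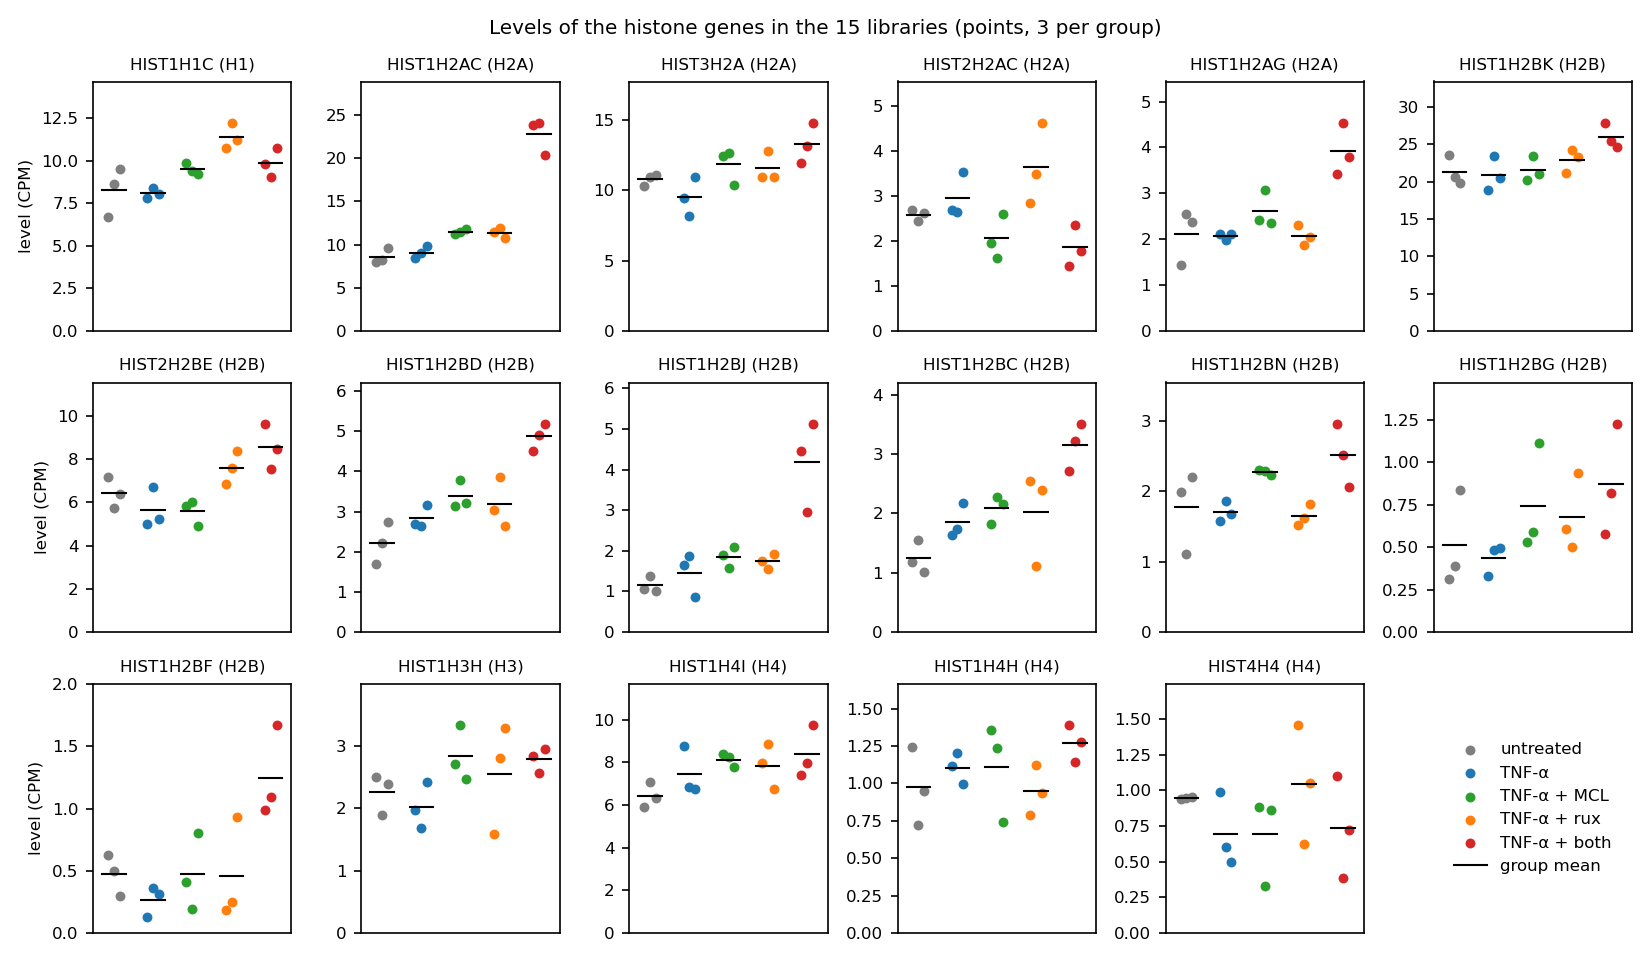
Level of each of the 17 histone genes in the 15 libraries (CPM, linear axes from 0, 1 point per library, bars at the mean of 3). HIST1H2AC, HIST1H2BJ and HIST1H2BD stand above every other library in the 3 libraries with both drugs, and HIST2H2AC is low there.

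HIST1H2AC, an H2A gene (ENSG00000180573, chromosome 6, 26124145 to 26139116, plus strand), had the smallest p. It stood at 7.98, 8.17 and 9.65 CPM in untreated libraries, 8.41, 9.01 and 9.81 with TNF-α, 11.2, 11.4 and 11.8 with MCL, 11.5, 11.9 and 10.8 with ruxolitinib, and 23.8, 24.1 and 20.4 CPM with both. The libraries with both drugs lay far above all others, and those with 1 drug lay above the TNF-α and untreated ones. Against TNF-α alone the log2 fold change was 1.32 ± 0.10 with both drugs (SE, adjusted p = 2.64e-17 in edgeR), a 2.50-fold higher level.

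Its head-to-head partner HIST1H2BC, an H2B gene, had 1.64, 1.74 and 2.17 CPM with TNF-α and 2.72, 3.22 and 3.51 CPM with both drugs. These ranges do not overlap, but ruxolitinib replicate 1 had 2.55 CPM, near the lowest library with both drugs. HIST1H2BC rose by 0.76 ± 0.26 on the log2 scale (SE, adjusted p = 0.00992). Over the 15 libraries HIST1H2AC held 3213 counts and HIST1H2BC 524.

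The second pair, HIST1H2AG and HIST1H2BJ, also rose in both genes. HIST1H2BJ had 1.06, 1.39 and 1.01 CPM in untreated libraries, 1.64, 1.86 and 0.87 with TNF-α, 1.89, 1.57 and 2.10 with MCL, 1.76, 1.56 and 1.93 with ruxolitinib, and 4.46, 2.95 and 5.12 CPM with both. Every library with both drugs was above every other, 1.51 ± 0.26 higher than TNF-α on the log2 scale (SE, adjusted p = 1.35e-06). HIST1H2AG had 1.43, 2.56 and 2.38 CPM in untreated libraries, 2.10, 1.98 and 2.11 with TNF-α, 2.42, 3.07 and 2.35 with MCL, 2.31, 1.87 and 2.05 with ruxolitinib, and 3.42, 4.53 and 3.79 CPM with both. Here too the groups did not overlap, and the log2 fold change was 0.92 ± 0.23 (SE, adjusted p = 0.000506).

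The third pair, on chromosome 1, went in opposite directions. HIST2H2BE had 7.17, 5.72 and 6.37 CPM in untreated libraries, 5.00, 6.73 and 5.22 with TNF-α, 5.84, 6.01 and 4.88 with MCL, 6.86, 7.60 and 8.36 with ruxolitinib, and 9.62, 7.53 and 8.46 CPM with both. It was thus above the TNF-α range in both ruxolitinib-treated groups, and rose by 0.59 ± 0.15 with both drugs (log2, SE, adjusted p = 0.000469). HIST2H2AC had 2.68, 2.44 and 2.62 CPM in untreated libraries, 2.70, 2.64 and 3.54 with TNF-α, 1.95, 1.63 and 2.60 with MCL, 2.85, 3.49 and 4.62 with ruxolitinib, and 1.45, 2.35 and 1.78 CPM with both. It was below the TNF-α range in both MCL-treated groups and fell by 0.66 on the log2 scale with both drugs (SE 0.25, adjusted p = 0.0182), the single member that fell. This call was lost without TNF-α replicate 3 or without combination replicate 1, with adjusted p of up to 0.12 over the alternatives. Of its 50-base stretches 30.5% also occur in other genes, chiefly the near-identical HIST2H2AA3 and HIST2H2AA4, and the authors' treatment of such reads is not given.

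**Figure D4:**
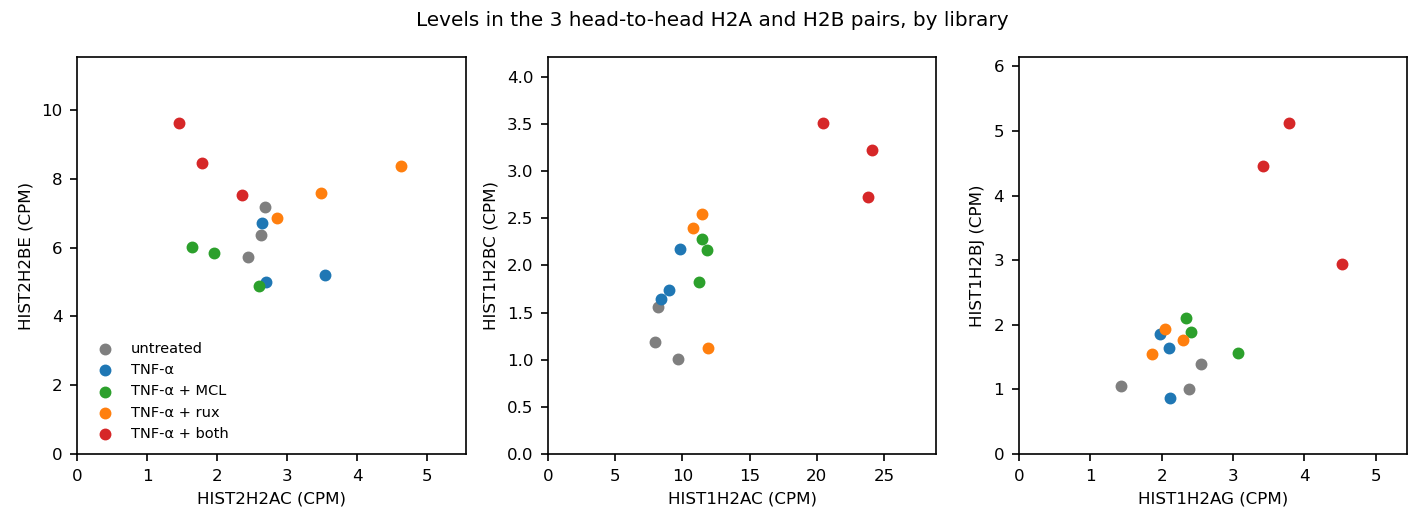
Levels of the H2A gene (x axis, CPM) against its head-to-head H2B gene (y axis, CPM) in the 15 libraries, coloured by group. The libraries with both drugs lie at the upper right for HIST1H2AC with HIST1H2BC and HIST1H2AG with HIST1H2BJ, and at the upper left for HIST2H2AC with HIST2H2BE.

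The other H2B genes that rose spanned a wide range of levels. HIST1H2BK, the most abundant, had 23.6, 20.7 and 19.8 CPM in untreated libraries, 18.9, 23.5 and 20.5 with TNF-α, 20.2, 23.5 and 21.1 with MCL, 21.2, 24.3 and 23.3 with ruxolitinib, and 27.9, 25.4 and 24.7 CPM with both. The 3 libraries with both drugs were the highest of the 15, by a small margin, and the log2 fold change over TNF-α was 0.31 ± 0.09 (SE, adjusted p = 0.00164). Of its 50-base stretches 74.1% also occur elsewhere, chiefly in H2BFS, which itself held 3 counts in all libraries together.

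HIST1H2BD had 1.68, 2.22 and 2.74 CPM in untreated libraries, 2.70, 2.64 and 3.17 with TNF-α, 3.13, 3.79 and 3.21 with MCL, 3.03, 3.86 and 2.63 with ruxolitinib, and 4.52, 4.91 and 5.18 CPM with both. The libraries with both drugs again stood above all others, at 0.78 ± 0.20 over TNF-α (log2, SE, adjusted p = 0.000682). HIST1H2BF, near the edge of the count rule, had 0.624, 0.5 and 0.298 CPM in untreated libraries, 0.131, 0.36 and 0.311 with TNF-α, 0.413, 0.196 and 0.803 with MCL, 0.182, 0.249 and 0.936 with ruxolitinib, and 0.985, 1.09 and 1.67 CPM with both. Its log2 fold change of 2.18 ± 0.53 (SE, adjusted p = 0.000342) was the highest of the members. It was also the least precise, since it rests on a mean count of 10. Its raw counts were 17, 20 and 30 with both drugs and 2 to 16 in the other libraries. HIST1H2BF thus met the count rule only through the group with both drugs, so its rise there is not independent of the rule.

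HIST3H2A, the H2A gene of the small chromosome 1 cluster, had 10.3, 10.9 and 11.1 CPM in untreated libraries, 9.47, 8.17 and 10.9 with TNF-α, 12.4, 12.7 and 10.4 with MCL, 10.9, 12.8 and 10.9 with ruxolitinib, and 11.9, 13.1 and 14.8 CPM with both. The libraries with both drugs were above those with TNF-α alone but overlapped those with 1 drug. It rose by 0.48 ± 0.12 over TNF-α (log2, SE, adjusted p = 0.000378).

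The linker gene HIST1H1C was highest with ruxolitinib alone. It had 6.67, 8.61 and 9.53 CPM in untreated libraries, 7.82, 8.41 and 8.01 with TNF-α, 9.85, 9.40 and 9.21 with MCL, 10.7, 12.2 and 11.2 with ruxolitinib, and 9.79, 9.06 and 10.7 CPM with both. With both drugs the log2 fold change over TNF-α was 0.29 ± 0.13 (SE, adjusted p = 0.0499). That call sat at the threshold and was lost in 7 of 12 alternatives, with adjusted p from 0.0121 to 0.18.

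The H3 and H4 members did not pass the test in any comparison. HIST1H4I, the most abundant of them, had 5.92, 7.06 and 6.31 CPM in untreated libraries, 8.74, 6.85 and 6.77 with TNF-α, 8.38, 8.23 and 7.79 with MCL, 7.95, 8.84 and 6.73 with ruxolitinib, and 7.42, 7.97 and 9.74 CPM with both. The 4 groups given TNF-α overlapped each other, while the untreated libraries lay below those with MCL and with both drugs. With both drugs the 95% interval of the log2 fold change over TNF-α was -0.14 to 0.48. HIST1H3H had 2.49, 1.89 and 2.38 CPM in untreated libraries, 1.97, 1.68 and 2.42 with TNF-α, 2.71, 3.33 and 2.47 with MCL, 1.58, 2.80 and 3.28 with ruxolitinib, and 2.84, 2.57 and 2.95 CPM with both. Both MCL-treated groups lay above TNF-α alone without overlap, at 0.48 ± 0.25 with MCL (log2, SE, adjusted p = 0.161) and 0.46 ± 0.25 with both (adjusted p = 0.115).

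HIST1H4H had 1.25, 0.722 and 0.953 CPM in untreated libraries, 1.12, 1.20 and 0.994 with TNF-α, 1.36, 1.24 and 0.742 with MCL, 0.789, 1.12 and 0.936 with ruxolitinib, and 1.39, 1.15 and 1.28 CPM with both. HIST4H4 had 0.935, 0.944 and 0.953 CPM in untreated libraries, 0.986, 0.601 and 0.497 with TNF-α, 0.885, 0.326 and 0.865 with MCL, 1.46, 0.623 and 1.05 with ruxolitinib, and 1.10, 0.382 and 0.724 CPM with both. For both genes the libraries with TNF-α alone and with both drugs overlapped. Their intervals with both drugs over TNF-α were wide, from -0.57 to 0.97 for HIST1H4H and from -0.91 to 1.08 for HIST4H4. Changes within those bounds were not excluded. The remaining H2B members, HIST1H2BN and HIST1H2BG, had log2 fold changes of 0.55 ± 0.26 (adjusted p = 0.0698) and 0.99 ± 0.47 (adjusted p = 0.0716, SE) with both drugs. All 3 libraries with both drugs lay above those with TNF-α alone for each of the 2 genes. HIST1H2BG met the count rule only through the libraries with both drugs, so its value there is not independent of the rule. HIST1H2BN shares 393 exon bases with HIST1H2AK on the opposite strand, and strand use in counting is not given.

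**Figure D5:**
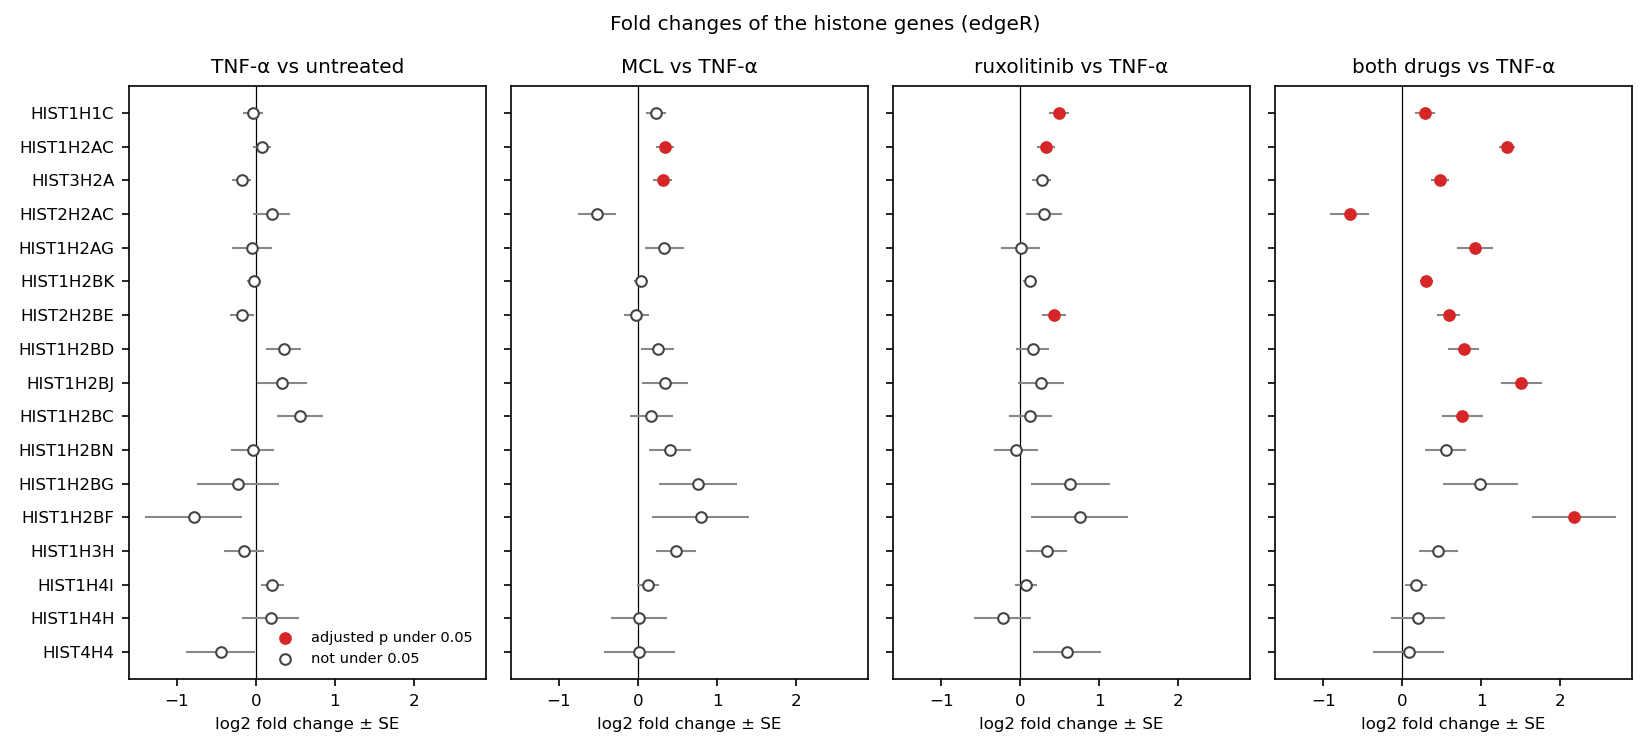
Log2 fold change of each histone gene in 4 comparisons (points, bars ± SE, edgeR); filled red points passed at an adjusted p under 0.05. With both drugs 10 genes lie to the right and HIST2H2AC to the left as filled points, and the panel of TNF-α against untreated has none.

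With MCL alone the 2 genes that passed were HIST1H2AC and HIST3H2A. Of the 17 members 2 rose and 0 fell against TNF-α, where 10.9% of tested genes rose and 15.1% fell. The number that rose is near the background share, and the members' median log2 fold change was 0.25. Both genes are of class H2A: HIST1H2AC rose by 0.34 ± 0.11 (log2, SE, adjusted p = 0.0214) and HIST3H2A by 0.31 ± 0.12 (adjusted p = 0.045). The HIST1H2AC call was lost without TNF-α replicate 1 or 2 or MCL replicate 3. The HIST3H2A call was lost in DESeq2 and without any of TNF-α replicates 1 and 2 or MCL replicates 1 and 2, so that the count fell to 0 without TNF-α replicate 1 or 2 and to 1 in DESeq2 and without each MCL replicate. HIST2H2AC had -0.52 ± 0.25 (adjusted p = 0.116), with all 3 MCL libraries below the TNF-α ones.

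Ruxolitinib alone raised 3 members and lowered 0, where 5.15% of tested genes rose and 10.6% fell, with a member median of 0.28. HIST1H1C rose by 0.49 ± 0.13 (log2, SE, adjusted p = 0.00291), HIST2H2BE by 0.43 ± 0.15 (adjusted p = 0.0411) and HIST1H2AC by 0.33 ± 0.11 (adjusted p = 0.0393). The HIST1H1C call stood in all 12 alternatives. The calls of HIST2H2BE and HIST1H2AC were each lost in 6, among them DESeq2 and no filter on low counts, each of which left 1 call. The count also fell to 1 without TNF-α replicate 1 and without ruxolitinib replicate 2.

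Between the drugs the only calls were in the chromosome 1 pair. With MCL against ruxolitinib 0 members rose and 2 fell, where 14.3% of tested genes rose and 13.1% fell. The number of members that fell is thus near the background share. HIST2H2AC had -0.83 ± 0.24 on the log2 scale (SE, adjusted p = 0.00564) and HIST2H2BE had -0.45 ± 0.15 (adjusted p = 0.0183). For both genes all 3 MCL libraries lay below the 3 ruxolitinib ones. HIST2H2AC lost its call without ruxolitinib replicate 3, and HIST2H2BE without that library or MCL replicate 3. For HIST1H2AC, which each drug alone raised, the difference was 0.01, with a 95% interval of -0.23 to 0.26.

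Adding the second drug raised histone genes over either drug alone. Over MCL 7 members rose and 0 fell, where 19.6% of tested genes rose and 22% fell. In order of p these were HIST1H2AC with 0.99 ± 0.10 (log2, SE, adjusted p = 1.21e-12), HIST1H2BJ with 1.17 ± 0.25 (adjusted p = 0.000111), HIST2H2BE with 0.61 ± 0.15 (adjusted p = 0.000452) and HIST1H2BK with 0.27 ± 0.08 (adjusted p = 0.00773). HIST1H2BF, HIST1H2BD and HIST1H2AG rose as well, by 0.53 to 1.39, HIST1H2BF having the highest fold change of the 7. Without MCL replicate 1 the number that rose was 3, and HIST1H2AC, HIST1H2BJ and HIST2H2BE held their calls in all 12 alternatives.

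Over ruxolitinib 7 members rose and 1 fell, where 24.8% of tested genes rose and 26.8% fell. HIST1H2AC rose by 1.00 ± 0.10 (log2, SE, adjusted p = 4.23e-13), HIST1H2BJ by 1.25 ± 0.25 (adjusted p = 2.85e-05), HIST1H2AG by 0.91 ± 0.23 (adjusted p = 0.000574) and HIST1H2BD by 0.62 ± 0.20 (adjusted p = 0.00613). HIST1H2BF, HIST1H2BC and HIST1H2BN rose by 0.60 to 1.42, and the call of HIST1H2BN was lost in 9 of 12 alternatives. HIST2H2AC fell, with a value of -0.97 ± 0.24 (adjusted p = 0.000457), and kept its call in all 12 alternatives. HIST2H2BE, its partner, had 0.16 ± 0.14 (adjusted p = 0.341).

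HIST1H2AC rose by more with both drugs than the sum of the single-drug changes. The non-additive contrast subtracts the log2 changes with MCL and with ruxolitinib from the change with both, each taken against TNF-α. It was positive and past the test for 1 of the 17 members and negative for 0, where 12.2% of tested genes were higher and 12.8% lower. Neither number of members is above the background share. For HIST1H2AC the contrast was 0.66 ± 0.15 (SE, adjusted p = 0.000565), and the call stood in all 18 alternatives. HIST1H2BJ had 0.90 ± 0.39 (adjusted p = 0.0816) and HIST1H1C had -0.44 ± 0.18 (adjusted p = 0.0603). The number higher became 2 without TNF-α replicate 3 or combination replicate 2, and the number lower became 1 without combination replicate 3.

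Of the 26 genes that drive histone transcription or process and degrade histone mRNA, 13 rose and 4 fell with both drugs over TNF-α, where 25.5% of all tested genes rose and 29.3% fell. They had a median log2 fold change of 0.11 against -0.03 over all tested genes. POU2F1, the factor that binds the octamer, had 54.6, 53.6 and 49.7 CPM with TNF-α and 90.1, 88.2 and 88.6 CPM with both drugs. These groups were far apart, at 0.76 ± 0.05 (log2, SE, adjusted p = 1.35e-19). ZNF473, a component of the U7 small nuclear ribonucleoprotein pathway of histone mRNA end processing, rose by 0.71 ± 0.08 (adjusted p = 4.02e-12), and SRRT fell by 0.32 on the log2 scale (SE 0.03, adjusted p = 2.03e-12). NPAT rose by 0.26 ± 0.07 (adjusted p = 0.000541). SLBP had -0.07 ± 0.04 (adjusted p = 0.0819).

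With MCL alone 8 of these 26 genes rose and 4 fell, where 10.9% of all tested genes rose and 15.1% fell, so the number that fell is near the background share. Those of smallest p were POU2F1 (0.26 ± 0.05, adjusted p = 0.000195), SRRT (-0.15 ± 0.03, adjusted p = 0.000564) and the decay factor UPF1 (0.14 ± 0.03, adjusted p = 0.00161). With ruxolitinib alone 1 rose and 2 fell, against 5.15% and 10.6% of all tested genes, so both numbers are near the background shares. PTBP1 had 0.10 ± 0.03 (adjusted p = 0.0157), NCBP1 of the nuclear cap-binding complex -0.14 ± 0.04 (adjusted p = 0.0157) and ZNF473 -0.24 ± 0.08 (adjusted p = 0.0432, all log2 and SE).

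The list of replication-independent histone genes holds variants, most of which are made outside S phase as well. Of 12 listed, 11 were tested, and with both drugs 8 fell and 1 rose, where 29.3% of all tested genes fell and 25.5% rose. The median log2 fold change was -0.15. H3F3B, which encodes the variant H3.3, fell by 0.22 (SE 0.03, adjusted p = 2.27e-08). H2AFX, the variant marked at DNA breaks, fell by 0.52 (SE 0.06, adjusted p = 9.5e-08), and the macroH2A gene H2AFY2 fell by 0.46 (SE 0.07, adjusted p = 3.92e-07). The one that rose was CENPA, the centromeric H3, by 0.29 ± 0.07 (adjusted p = 0.00027, all log2). With MCL alone 4 fell and 0 rose, against 15.1% and 10.9% of all tested genes. With TNF-α 2 rose and 1 fell, against 14.1% and 12.5%. With ruxolitinib alone 2 rose and 0 fell, against 5.15% and 10.6%, and these were the linker variants H1F0 (0.31 ± 0.04, adjusted p = 3.14e-09) and H1FX (0.30 ± 0.05, adjusted p = 3.96e-06). Whether these genes differ as a group from the replication-dependent ones was not tested.

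Histone chaperones, which carry histones to and from DNA, were mixed with both drugs: 3 of 13 rose and 5 fell, near the 25.5% and 29.3% of all tested genes. ASF1A, a chaperone of H3 and H4, rose by 1.40 ± 0.08 (adjusted p = 4.9e-16), and SUPT16H of the FACT complex fell by 0.48 (SE 0.03, adjusted p = 1.27e-19), as did DAXX, by 0.40 (SE 0.05, adjusted p = 5.83e-11, all log2). ASF1A also rose with MCL alone, by 0.98 ± 0.09 (adjusted p = 4.81e-11).

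Genes of S-phase entry and replication were mixed. With both drugs 7 of 26 rose and 15 fell, where 25.5% of all tested genes rose and 29.3% fell, so the number that rose is near the background share. The median log2 fold change was -0.12. MCM5 of the replicative helicase rose by 0.36 ± 0.03 (adjusted p = 1.1e-14), while the flap nuclease FEN1 fell by 0.39 (SE 0.04, adjusted p = 5.62e-14) and the sliding clamp PCNA by 0.36 (SE 0.03, adjusted p = 7.29e-14, all log2). Of 17 genes of G2 and mitosis 6 rose and 4 fell, among them HMMR (0.73 ± 0.05, adjusted p = 1.22e-21), MKI67 (-0.35 ± 0.03, adjusted p = 2.31e-13) and CCNA2 (-0.23 ± 0.04, adjusted p = 1.04e-06). With ruxolitinib alone 6 of the 26 replication genes rose and 1 fell, and 4 and 0 of the G2 and mitosis genes did, against 5.15% and 10.6% of all tested genes. With MCL alone 5 rose and 3 fell in the first list and 2 and 6 in the second, against 10.9% and 15.1%. With TNF-α 1 rose and 5 fell in the first list and 1 and 7 in the second, against 14.1% and 12.5%.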

How the data were processed

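The authors deposited unnormalized read counts for 58735 genes in 15 libraries, with a gene length. The submitters' processing notes name the aligner HISAT2 (2.0.5), the counter featureCounts (1.5.0-p3) and DESeq2 (1.16.1), and both the hg38 and mm10 builds, without saying how each was used. All 58735 genes matched GENCODE 29 of hg38 by start, end and symbol. The sources used here do not give strand use, the handling of reads with several matches, or RNA selection.

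The members and gene lists were chosen with earlier results of these data known. The table's control columns stand for the untreated cells. Genes were filtered with edgeR 4.0.16 (filterByExpr, minimum count 10; R 4.3.3), which left 16146 and kept all 17 members. Counts were scaled by TMM and fitted in 1 robust quasi-likelihood model with 5 group terms (10 residual degrees of freedom), with Benjamini-Hochberg adjustment over all tested genes. Standard errors were derived as |log2 fold change| over √F. The 95% intervals use 10 degrees of freedom, fewer than the test itself draws on, so they are wider than its p-values imply. Alternatives were other scalings, no filter, DESeq2 1.42.0, fewer groups, a replicate block and each library left out. Pairs of libraries within a group differed by more than sampling noise. The fits were tested on simulated counts.

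Values in every library are given for the 3 members of highest CPM per kb in each class and the 4 of smallest p in each comparison and direction, and the 3 list genes of smallest p are named. HIST1H2BC, SLBP, NPAT, CENPA and the head-to-head pairs were chosen after their values were seen.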

Additional observations from a re-analysis of the deposited data

Results flagged for a closer look

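The effect of MCL on HIST1H2AC differed between cells with and without ruxolitinib. The difference in log2 fold change was 0.66 (SE 0.15, adjusted p = 0.000565), tested by the interaction contrast of edgeR over the 4 TNF-α groups. In this contrast 1 of the 17 members was called, where 12.2% of all tested genes were higher and 12.8% lower. With MCL the log2 fold change was 0.34 ± 0.11 without ruxolitinib and 1.00 ± 0.10 in its presence (SE).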

How the results depend on the processing

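Counts and directions of the histone genes were recomputed with size factors of DESeq2 (RLE), library totals, no filter, DESeq2, only the groups compared, a replicate block and each library left out. Ruxolitinib against TNF-α gave 1 higher member with no filter and 1 with DESeq2, in place of 3, and MCL against TNF-α gave 1 with DESeq2 in place of 2. The non-additive contrast gave 1 lower member with only the groups compared, in place of 0. The causes were not tested. With a library left out, the members higher with both drugs were 9 to 10 over TNF-α, 3 to 7 over MCL and 5 to 6 over ruxolitinib. Those lower were 0 to 1 over TNF-α. Members higher were 0 to 2 with MCL and 1 to 3 with ruxolitinib, members lower with MCL against ruxolitinib were 0 to 2, and the non-additive contrast gave 1 to 2 higher and 0 to 1 lower. The summed level with both drugs was 119.7 CPM on library totals. Of 1726 recomputed log2 fold changes of single members 62 lost a call, 15 gained one and 0 called values changed sign, while 71 values without a call did. Pairing by replicate number was weak at most. The median correlation of deviations was 0.01 over 30 same-numbered pairs and -0.01 over 60 pairs of different number. In both sets 0 pairs passed 0.1. However, 9 of 15 libraries correlated best with their own number, so a weak pairing was not excluded. With the replicate block 10 members were higher and 1 lower with both drugs over TNF-α, 6 were higher over ruxolitinib in place of 7, and the other counts did not change.

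Library totals moved the share of all calls that were higher from 53% to 42.4% for TNF-α, from 41.8% to 53.7% for MCL and from 32.8% to 45.4% for ruxolitinib. Members with mean counts near 10 had a coefficient of variation within groups of up to 57.9%, so changes of the size seen in HIST1H2BK could not be detected there.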

Other observations

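Histone genes outside the count rule or annotated as pseudogenes gave further values, chosen after they were seen. HIST2H2BC, a transcribed H2B pseudogene, had 4.47, 5.59 and 5.16 CPM with TNF-α and 8.86, 8.95 and 9.85 CPM with both drugs, which is 0.86 ± 0.15 on the log2 scale (SE, adjusted p = 1.46e-06 in edgeR). HIST2H2BD, another H2B pseudogene, had 0.84 ± 0.26 (adjusted p = 0.00506). HIST1H2BE, with a level under 1.01 CPM in every library, had 1.29 ± 0.51 over TNF-α (adjusted p = 0.0294) and 1.86 ± 0.55 over ruxolitinib (adjusted p = 0.00356). Over ruxolitinib HIST2H2BF had 1.67 ± 0.50 (adjusted p = 0.00374) and HIST3H2BB 1.68 ± 0.61 (adjusted p = 0.0181), where 24.8% of all tested genes rose. Over TNF-α neither was called, at 0.49 ± 0.43 (adjusted p = 0.349) and 0.92 ± 0.56 (adjusted p = 0.163). HIST1H2BE and HIST3H2BB passed the filter on low counts only because of libraries with both drugs. Their rises in that group are thus not independent of the filter. HIST2H2BF had a non-additive value of 2.06 ± 0.70 (adjusted p = 0.023), where 12.2% of all tested genes were higher. Its change with ruxolitinib alone was -1.18 ± 0.53 (adjusted p = 0.137), on few counts. In all, 7 histone genes outside the members were tested. Those not named above, HIST1H2AI and HIST1H1E, had no call, and no difference between classes was tested.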
